A study of Homo sapiens with 2 samples.

Results

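The baseline transcriptome of control NCI-H838 cells was described from 1 RNA library. NCI-H838 is an established human lung adenocarcinoma line, and these cells were transfected with the empty pCDH plasmid using Lipofectamine 2000 and collected 48 hours later as total RNA. The series holds 2 libraries, and the library with the LINC00472 plasmid was not used for any value below. The genes described were chosen by a level of at least 1 FPKM (sequenced fragments divided by transcript length and by library size) in the control library. That left 12751 of 27685 listed genes (46.1%), and 11232 of 19103 protein-coding genes (58.8%). Since the level itself chose them, levels are given as a description, with no test. Cells that received transfection reagent and a plasmid are not untreated cells, and no untransfected culture was analysed here.

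Lung adenocarcinoma arises from the epithelium of the distal airways and alveoli. Alveolar type 2 cells make surfactant proteins under the transcription factor NKX2-1, club and goblet cells make secretoglobins and mucins, and basal cells depend on TP63. Epithelial cells hold together through E-cadherin (CDH1) and are kept epithelial by factors such as GRHL2 and the splicing regulators ESRP1 and ESRP2, while mesenchymal cells carry vimentin (VIM) and the repressors ZEB1 and ZEB2. Tumour lines can keep, lose or mix these states.

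The control library held 54823706 counts over 18910 genes with a count, and 8775 listed genes had 0 counts. With 1 library there is no replicate check, so the intervals given are exact Poisson 95% intervals of the gene's count, scaled to FPKM, and cover counting error only. A count of 0 was taken to allow up to 3 counts, a set limit that does not come from those intervals. LINC00472 itself, the noncoding RNA that the series' other library was given on a plasmid, stood at 2563 counts and 4.74 FPKM (interval 4.56 to 4.93) in these control cells.

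Genes at 1 FPKM or more held 99.6% of the counts. Their median was 10.5 FPKM, with quartiles of 4.12 and 25.03, and their median count was 1764. By level, 6195 genes lay from 1 to under 10 FPKM, 5901 from 10 to under 100, 624 from 100 to under 1000, and 31 at 1000 or more. At the threshold, PRRT2, CABLES2 and KATNAL2 lay just inside at 1.002, 1.002 and 1.001 FPKM, with 160, 216 and 162 counts. Just outside were ANKRD2 at 0.9995 FPKM (87 counts), JHDM1D-AS1 at 0.9969 (136 counts) and ZNF493 at 0.9969 (222 counts). The intervals of these 6 genes all reach across the threshold, so their side of it is not settled at this depth.

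Because FPKM divides by length, the threshold stands for few reads in a short gene and many in a long one. Among the genes inside it, 155 had under 10 counts, of which 134 were microRNA loci and 20 small nucleolar RNAs. Outside it, 542 genes had 100 counts or more, and 442 of them were protein-coding. Median transcript length of protein-coding genes was 2350.5 nucleotides under 1 FPKM, 3563.5 from 1 to under 10, 3188.5 from 10 to under 100, and 1712 at 100 or more. Across 11125 protein-coding genes inside the threshold, FPKM and transcript length had a Spearman correlation of -0.16. All of those points come from the same library, and FPKM is itself computed from length.

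The top of the protein-coding ranking was held by iron storage, cytoskeleton, translation and glycolysis genes. Ferritin light chain (FTL, NCBI gene ID 2512), a subunit of the iron storage shell, ranked first with 208625 counts and 4210 FPKM (interval 4192 to 4228). Beta-actin (ACTB) followed with 273351 counts and 2651 FPKM (2641 to 2661), and the elongation factor EEF1A1 with 501162 counts and 2508 FPKM (2501 to 2515). EEF1A1 had more counts than ACTB or FTL, and it ranks below them only per length. The glycolytic enzymes LDHB at 2319 FPKM and GAPDH at 2168 FPKM came next, then the actin-binding peptide TMSB10 at 1763.

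Ribosomal protein genes filled much of what followed. RPS18 stood at 1571 FPKM (1557 to 1585) and RPS27 at 1564 FPKM (1547 to 1581), and these neighbours do not differ beyond counting error. RPL19 (1520), RPSA (1473), RPL11 (1432), RPL7 (1377), RPL5 (1239), RPL41 (1196), RPS6 (1178), RPLP0 (1170) and RPS2 (1162) complete the ribosomal genes among the 20 highest. The other members of that group were ENO1, a glycolytic enzyme at 1454 FPKM, HSPA8, a constitutive chaperone at 1403, and MYL6, a myosin light chain at 1265.

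The share of expression held by the top of the ranking depended on how it was summed. The 10 highest protein-coding genes held 5.85% of summed protein-coding FPKM, the 100 highest 24.2%, and the 1000 highest 57.7%. The share of the 100 highest was 38.0% with all gene classes ranked and summed, and 14.0% by read counts in place of FPKM. By protein-coding FPKM, 639 genes held 50% of the sum, and 5201 held 90%. All 78 measured ribosomal protein genes lay at 1 FPKM or more, with a median of 676 FPKM, 56 of them among the 100 highest, and together they held 14.5% of the sum. RPS16 (23.7 FPKM) and RPL21 (2.67 FPKM) were low for the family. The RPL21 value cannot be read alone, because the near-identical pseudogene RPL21P28 carried 27952 counts against 86 for RPL21, and reads of such copies may have been divided by the counting.

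**Figure D1:**
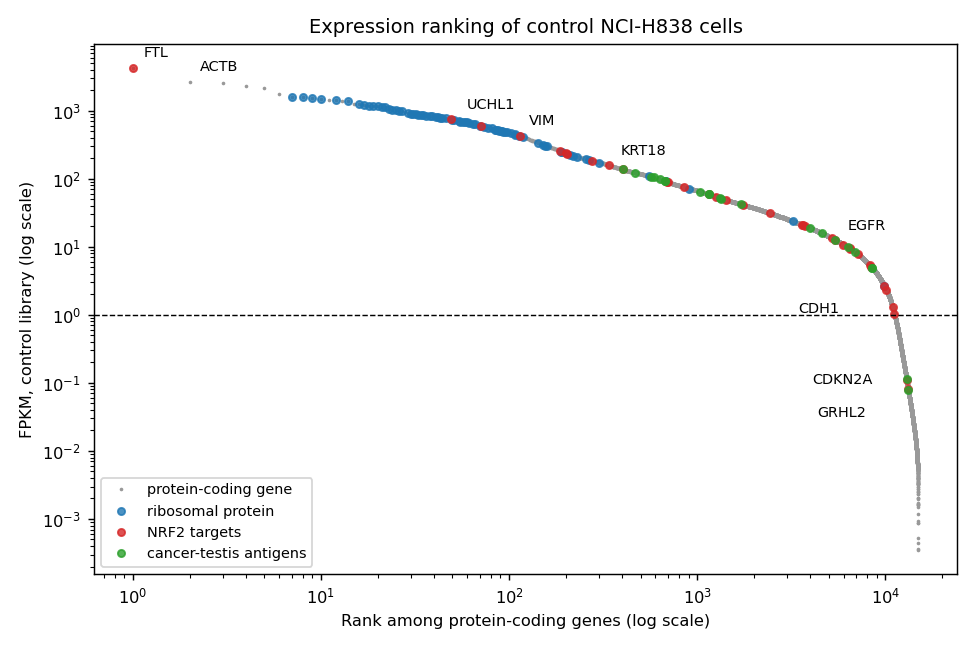
FPKM of each protein-coding gene with a count in the control library (vertical, log scale) against its rank (horizontal, log scale), with ribosomal protein genes in blue, NRF2 targets in red and cancer-testis antigens in green. FTL stands alone at 4210 FPKM, ribosomal protein genes crowd the ranks just below, and the curve drops steeply once it passes the dashed line at 1 FPKM.

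Noncoding classes contributed in different ways. Protein-coding genes held 94.7% of counts and 75.8% of summed FPKM. A group of 81 other genes, of which 45 reached 1 FPKM, held 3.22% of counts but 20.3% of summed FPKM. It gathers all matched genes outside the classes named here and in the next paragraph, among them the ribosomal RNA gene RNR2 (396 FPKM). RMRP, the RNA of mitochondrial RNA processing endoribonuclease, stood at 47505 FPKM with 724402 counts. RPPH1, the RNA of ribonuclease P, stood at 42880 FPKM with 831971 counts. Both exceeded FTL, the highest protein-coding gene by FPKM, per length and also in counts (208625 for FTL). The signal recognition particle RNA RN7SL3 (3501 FPKM) and the Cajal body RNAs SCARNA2 (1767) and SCARNA10 (825) came after them.

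Of 4889 long noncoding RNA genes, 653 reached 1 FPKM. MALAT1, a nuclear speckle RNA, led with 184081 counts and 373 FPKM, followed by LRRC75A-AS1 at 346, the small nucleolar RNA hosts GAS5 at 217 and ZFAS1 at 171, and NORAD at 138. Small nucleolar RNA genes reached 1 FPKM in 258 of 523 cases, led by SNORA73B at 1261, SNORD17 at 652, SNORD133 at 502, SNORA32 at 183 and SNORA63 at 150.2. Among 1836 microRNA loci 232 reached 1 FPKM, led by MIR663A at 1540, MIR3652 at 131, the identical-count pair MIR3648-1 and MIR3648-2 at 105 each, and MIR1244-4 at 103. These are reads over the locus and not a measure of mature microRNA. Pseudogenes reached it in 294 of 1123 cases. RPL21P28 led them at 874, followed by TRIM16L at 286, HNRNPA1P10 at 220.0, H3F3AP4 at 171 and RPL13AP5 at 165. Each of those has a close protein-coding relative, so its value is uncertain. Of 130 listed genes with no match to a class, 37 reached 1 FPKM, led by GAGE7 at 138, GAGE6 at 134, MIR3687-1 and MIR3687-2 at 130.3 and 130.4, and MIR6087 at 116.

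Most alveolar type 2 markers were under the threshold. Of 12 alveolar type 2 genes, 3 reached 1 FPKM and the list median was 0.076 FPKM, beside 3.15 over all protein-coding genes. Those 3 were ETV5, an ETS factor (12.2 FPKM), the lipid enzyme LPCAT1 (7.45) and the lamellar body transporter ABCA3 (1.85). NKX2-1 and the surfactant genes SFTPA1, SFTPA2, SFTPB and SFTPD had 0 counts, and SFTPC had 7. The aspartic protease NAPSA had 66 counts and 0.742 FPKM. The defining markers of alveolar type 2 cells were thus at or near 0 in a line labelled as lung adenocarcinoma. In a bulk library, fewer cells of a type and less RNA per cell cannot be told apart.

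The other airway and alveolar lists differed in how many genes reached the threshold. All 12 club and goblet genes lay under 1 FPKM, and 9 of them, including SCGB1A1, MUC5AC and AGR2, had 0 counts. Of 8 alveolar type 1 genes, 3 reached it, namely caveolin-1 (CAV1, 67.8), EMP2 (21.6) and RTKN2 (9.29), while AQP5, PDPN and HOPX had 0 counts. CAV1 is also made by many other cell types. Of 10 ciliated cell genes, 5 reached it, a share near the 58.8% of all protein-coding genes, with a list median of 0.875 FPKM. They were led by the ciliogenesis factor FOXJ1 at 6.44 FPKM (6.04 to 6.86). The others were CAPS, CCDC78, DNAH5 and TPPP3, at 1.06 to 2.31, and the axonemal genes DNAI1, PIFO and SNTN had 0 counts.

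Single genes of other lineages stood high without the rest of their lists. The basal keratin KRT17 reached 106 FPKM (104 to 108), while KRT5, KRT6A and TRIM29 lay between 2.48 and 3.01, and TP63 and SOX2, the defining factors, lay at 0.203 and 0.042. In the neuroendocrine and tuft list, UCHL1, a deubiquitinating enzyme of neurons and neuroendocrine cells, had 46131 counts and 721 FPKM (715 to 728), rank 52 among protein-coding genes. The granule proteins CHGA and CHGB stood at 1.52 and 1.21, INSM1 at 0.0743, and GRP and POU2F3 at 0 counts. UCHL1 was therefore 474 times CHGA per length (counting interval 409 to 553).

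Most markers of other tissues and cell types were under the threshold as well. The endothelial list had 0 of 10 genes at 1 FPKM and the gut and liver list 1 of 18, transthyretin (TTR) at 1.08. Blood cell genes reached it in 2 of 13 cases, the lysosomal protein CD68 (14.2) and CD14 (2.75), while the pan-leukocyte gene PTPRC had 0.141 and CD3E, MS4A1 and ITGAM had 0 counts. Neural and melanocytic genes reached it in 2 of 10, the synaptic protein SNAP25 (15.4) and MITF (6.37), with SOX10 at 0 counts. Fibroblast and smooth muscle genes reached it in 3 of 12, FAP (5.12), LUM (1.40) and COL1A1 (1.36). Over these 11 marker lists, 26 of 135 genes reached 1 FPKM, against 58.8% of protein-coding genes.

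**Figure D2:**
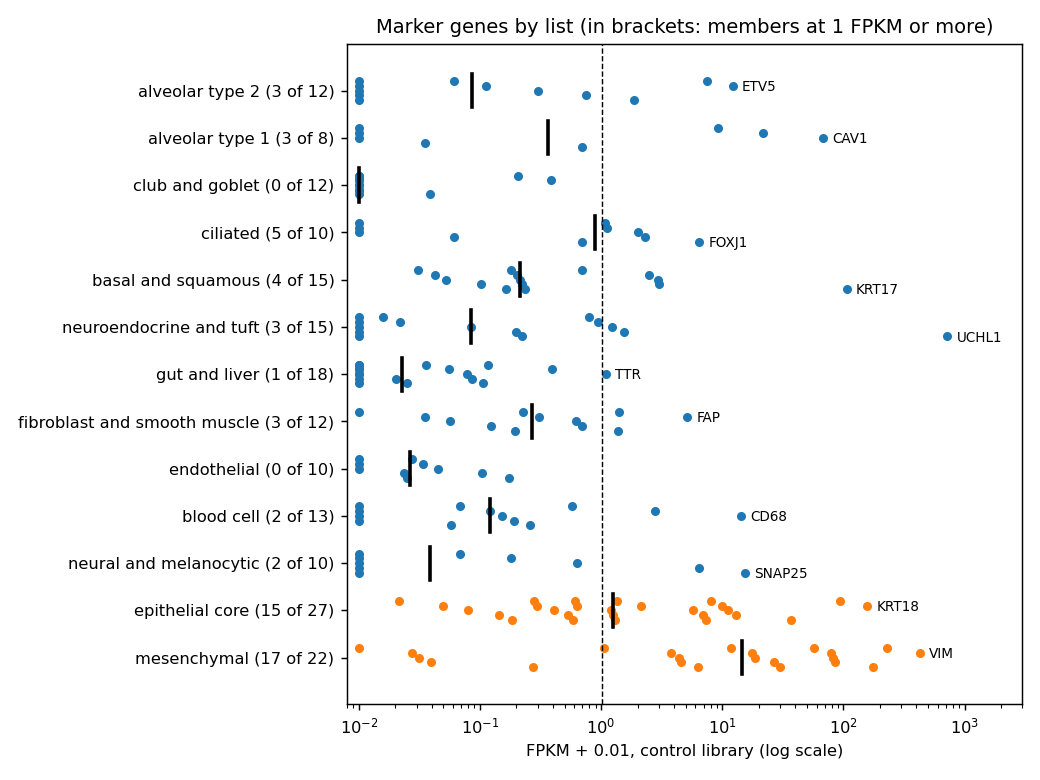
Each point is a gene and gives FPKM plus 0.01 in the control library on a log scale, with lists as rows, list medians as black bars and the 1 FPKM threshold as a dashed line. The 11 marker lists (blue) have medians under 1 FPKM with isolated high genes such as UCHL1 and KRT17, and the epithelial core and mesenchymal lists (orange) have medians of 1.24 and 14.6 FPKM.

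Genes of the mesenchymal state were present at higher levels than most of the epithelial core. Of 22 mesenchymal genes 17 reached 1 FPKM (77.3%), with a list median of 14.6 FPKM. Of 27 epithelial core genes 15 reached it (55.6%, near the 58.8% of all protein-coding genes), with a list median of 1.24 FPKM. The lists differ in their genes, so the medians are set side by side without a test.

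Vimentin (VIM), the intermediate filament of mesenchymal cells, had 52063 counts and 428 FPKM (425 to 432). The matrix protein TGFBI stood at 230, the actin cross-linker TAGLN at 174, SPARC at 85.7, the actin-binding CALD1 at 81.7 and fibronectin (FN1) at 78.5. Among the transcription factors of this list, ZEB1 stood at 18.5 FPKM, TWIST2 at 6.31 (5.71 to 6.96), ZEB2 at 4.54 and SNAI1 at 4.42. SNAI2 stood at 0.261 FPKM and TWIST1 had 0 counts. N-cadherin (CDH2) stood at 3.79 FPKM and the gelatinase MMP2 at 0.0298.

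Simple-epithelial keratins were present beside these. KRT18 stood at 157 FPKM (154 to 159), KRT8 at 94.2 (92.3 to 96.1) and KRT7 at 37.1. The junction genes TJP1 and CLDN1 followed at 13.03 and 11.1, and the mucin MUC1 at 9.98. Further junction genes came next, PKP3 at 8.12, OCLN at 7.37, DSP at 6.86, JUP at 5.77 and CDH3 at 2.14. E-cadherin and EPCAM, the surface markers by which epithelial cells are usually recognised, were just over the threshold, with 368 counts and 1.34 FPKM (1.21 to 1.48) for CDH1 and 117 counts and 1.19 FPKM (0.982 to 1.42) for EPCAM. The EPCAM interval reaches under 1 FPKM.

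Other epithelial genes were below it. KRT19 had 44 counts and 0.520 FPKM, so KRT18 was 301 times KRT19 per length (224 to 415). ESRP1 had 16 counts and GRHL2 had 13, at 0.070 and 0.0399 FPKM. VIM was 320 times CDH1 (289 to 355), CDH2 was 2.83 times CDH1 (2.51 to 3.21), and ZEB1 was 464 times GRHL2 (271 to 873). In the keratin family 10 of 55 genes reached 1 FPKM, in the claudin family 4 of 24 (CLDN12, CLDN1, CLDN23 and CLDN15), among CDH-named cadherins 5 of 23, and among mucins 2 of 17 (MUC1 and MUC4). The share was 58.8% over all protein-coding genes.

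The transcription factors that specify lung and foregut were unevenly present. Of 36, 15 reached 1 FPKM (41.7%, beside 58.8% of all protein-coding genes), and the list median was 0.340. CEBPB, a leucine zipper factor of inflammatory and metabolic genes, led at 35.5, followed by KLF5 (25.02), CEBPD (20.3), ID2 (19.5), ETV5 (12.2) and NFIB (11.3). NKX2-1, FOXA2 and GATA4 had 0 counts. The names of FOXA2, GATA4, FOXA1 (14 counts, 0.0727 FPKM), SOX9 (0.563) and GATA6 (2.25) fall outside the naming rule and were added after their values were seen, as were the low epithelial, mesenchymal and other genes named for their low level throughout.

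**Figure D3:**
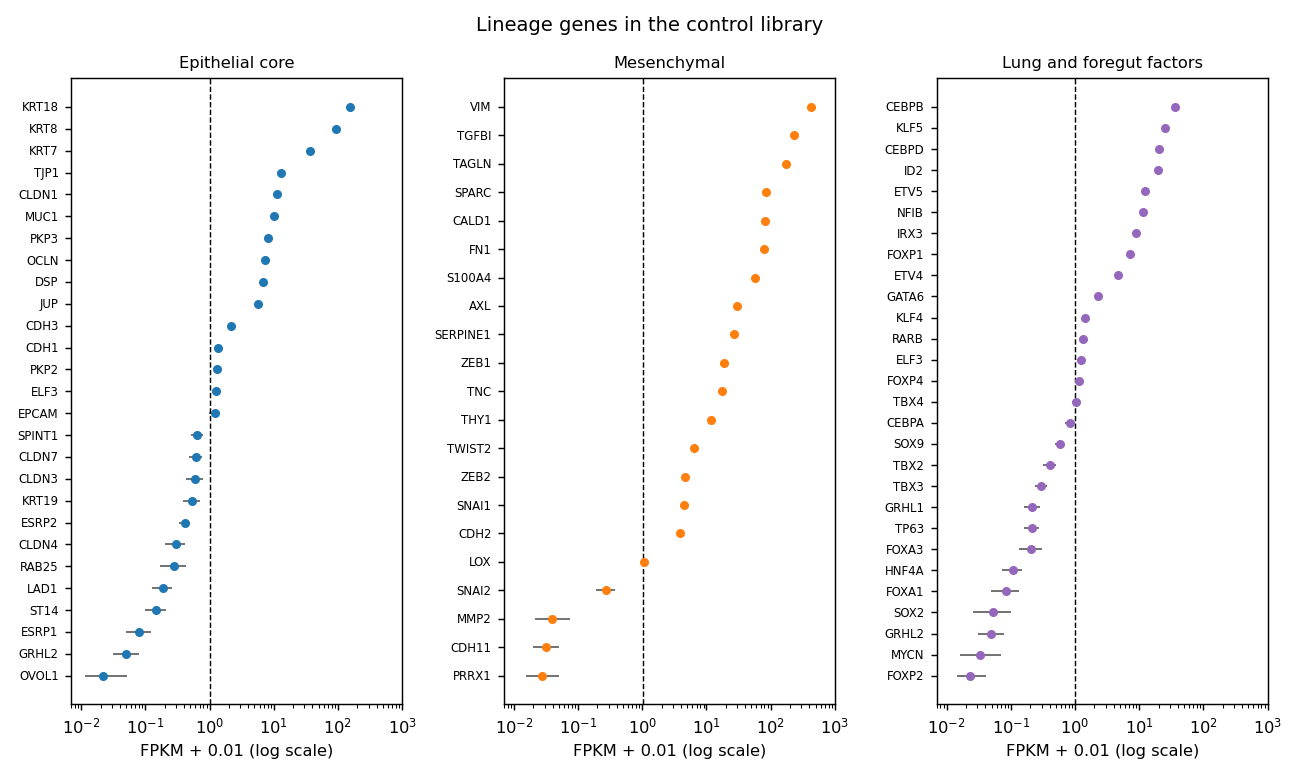
FPKM plus 0.01 of the genes of the epithelial core, mesenchymal and lung and foregut factor lists that had a count (log scale), sorted by level, with exact Poisson 95% counting intervals as bars, which are hidden by the points of abundant genes, and the dashed line at 1 FPKM. VIM, TGFBI and TAGLN lie above KRT18, the highest gene of the epithelial core list, and genes with 0 counts, such as NKX2-1 and FOXA2, are not drawn.

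Homeobox (HOX) genes, which carry positional identity along the body axis, were partly on. Of 39 HOX genes 17 reached 1 FPKM (43.6%, beside 58.8% of all protein-coding genes). Clusters A, B, C and D had 3 of 11, 4 of 10, 7 of 9 and 3 of 9. HOXD10 (11.5) and HOXB7 (8.66) led, followed by HOXD11 (5.77), HOXA10 (4.25), HOXC9 (3.70) and HOXC10 (2.99). By position within the clusters, 2 of 12 genes numbered 1 to 4 reached it, 6 of 11 numbered 5 to 8, and 9 of 16 numbered 9 to 13.

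Other factor families were led by few members, and their counts stand beside 58.8% of all protein-coding genes at 1 FPKM or more. KLF genes reached 1 FPKM in 12 of 17 cases, led by KLF5, KLF10 (11.8) and KLF6 (11.4). FOX genes reached it in 18 of 50, led by FOXE1 (11.3), FOXN2 (11.005) and the proliferation factor FOXM1 (10.8). SOX genes reached it in 4 of 19, led by SOX12 (5.20), TBX genes in 4 of 13, led by TBX18 (6.78), and GATA genes in 2 of 6, GATA2 (3.93) and GATA6. Nuclear receptors reached it in 23 of 48, led by NR2F6 (39.4), NR1H2 (37.4) and the glucocorticoid receptor NR3C1 (28.1).

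Genes regulated by NRF2, the factor that drives antioxidant and detoxification genes and is held in check by KEAP1, were nearly all over the threshold. Of 36 genes 34 reached 1 FPKM (94.4%, beside 58.8% of all protein-coding genes). Their list median was 36.1 FPKM, beside 3.15 over all protein-coding genes. FTL led, followed by peroxiredoxin PRDX1 at 757 FPKM (750.3 to 764.5), the other ferritin subunit FTH1 at 592, the quinone reductase NQO1 at 423 (419 to 426), TRIM16L at 286 and thioredoxin (TXN) at 255. FTL was 7.11 times FTH1 per length (7.04 to 7.19). UGT1A6, with 16 counts, and GPX2, with 6, were the 2 genes under the threshold. Several of these genes, ferritin among them, are abundant in many cells.

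Cancer-testis antigens are germline genes usually silent in adult tissues. Of 39 genes 20 reached 1 FPKM (51.3%, near the 58.8% of all protein-coding genes), and 16 had 0 counts, as did 8775 of the 27685 listed genes. The highest were GAGE12J (137 FPKM), MAGEA4 (122), CT45A1 (107.4), CTAG2 (104), GAGE2A (97.5) and MAGEC2 (92.1). PRAME stood at 91.9 and was named after its value was seen. SSX1, SSX2, PAGE1 and CTAG1B had 0 counts. GAGE, MAGEA and CT45 genes occur as near-identical copies, so the split of reads among copies is uncertain, and the level of a single copy should be read with that in mind.

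Among oncofetal genes, those of fetal tissues and stem cells, 10 of 22 reached 1 FPKM (45.5%, beside 58.8% of all protein-coding genes). The chromatin protein HMGA1 led at 80.9 FPKM, followed by the Polycomb protein BMI1 (72.9), the RNA-binding protein IGF2BP3 (50.1), CD44 (35.03), the let-7 inhibitor LIN28B (27.5) and IGF2BP1 (17.7). Its paralogue LIN28A had 3 counts, a ratio of 3145 with a counting interval of 1076 to 15255. The pluripotency factors POU5F1 and NANOG had 0 counts.

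The drivers and suppressors of lung cancer were mostly transcribed. Of 40 genes 33 reached 1 FPKM (82.5%, beside 58.8% of all protein-coding genes), with a list median of 15.7. The telomerase RNA TERC led at 188 FPKM, and the reverse transcriptase TERT had 190 counts and 0.832 FPKM. NRAS stood at 138 FPKM and HRAS at 17.8. The cell cycle genes CCND1 and CDK4 stood at 54.7 and 51.8 FPKM, and NFE2L2, which encodes NRF2, at 38.8.

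Several suppressors were followed at any level. SMARCA4, an ATPase of the SWI/SNF chromatin remodeller, had 4004 counts and 13.2 FPKM (12.8 to 13.6), and its paralogue SMARCA2 had 4853 counts and 16.3 FPKM. KEAP1 had 1562 counts and 10.6 FPKM, and STK11, the kinase LKB1, had 719 counts and 3.85 FPKM. CDKN2A, which encodes p16 and ARF, had 8 counts and 0.122 FPKM (0.0527 to 0.241). A transcript level does not say whether the protein is made or intact.

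Receptors and ligands were led by few members. Of 51 receptor tyrosine kinases 22 reached 1 FPKM (43.1%, beside 58.8% of all protein-coding genes), with a list median of 0.0675. RYK (49.0), ERBB2 (36.5), DDR2 (35.5), IGF1R (35.5), AXL (30.0) and EPHA2 (28.3) led, and EGFR stood at 12.3 (11.9 to 12.7). DDR2 and IGF1R do not differ beyond counting error. Of 52 growth factor ligands 19 reached it (36.5%), led by the matricellular proteins CYR61 (207) and CTGF (50.6), then WNT5A (43.4), PDGFC (26.1), FGF2 (23.8) and VEGFB (23.7).

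**Figure D4:**
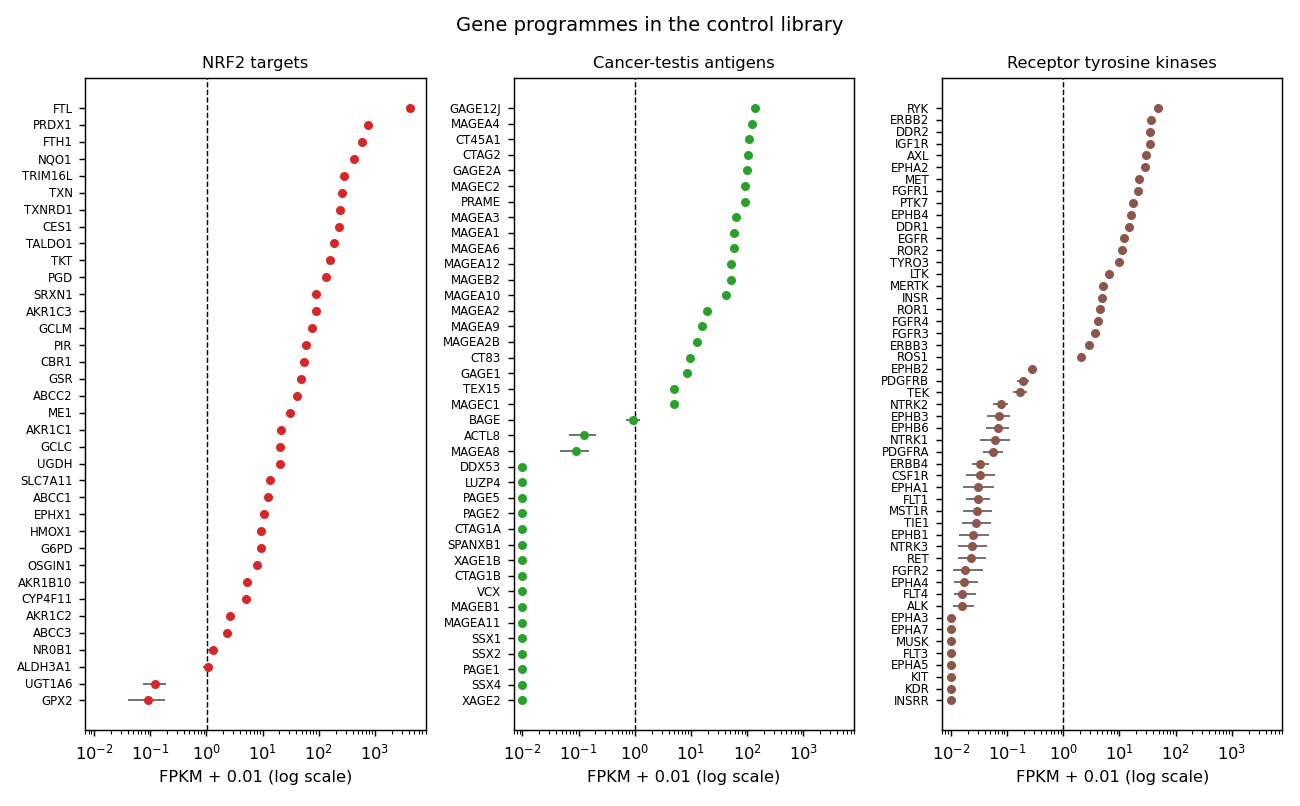
FPKM plus 0.01 of every NRF2 target, cancer-testis antigen and receptor tyrosine kinase of the lists (log scale), with exact Poisson 95% counting intervals as bars and the dashed line at 1 FPKM. NRF2 targets lie to the right of the line except UGT1A6 and GPX2, and the cancer-testis antigens divide into 20 at or above the line and 19 below it, 16 of those at 0 counts.

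Housekeeping and growth programmes were broadly on. Proliferation genes reached 1 FPKM in 38 of 39 cases (97.4%, beside 58.8% of all protein-coding genes). CCND2 (64 counts, 0.171 FPKM) was the exception. The proliferation list also holds the cell cycle inhibitors CDKN1B (24.1), CDKN1A (10.1) and CDKN1C (9.75), so its count is not of growth genes alone. The replication clamp PCNA led at 199 FPKM, followed by TOP2A (147), AURKA (110), MCM7 (104), MCM2 (96.3) and CCNB1 (87.4). CCND1 was 320 times CCND2 per length (250 to 416). Glycolysis genes reached 1 FPKM in 21 of 24 cases (87.5%), and HK3 and PKLR had 0 counts. LDHB was 11.4 times LDHA (11.2 to 11.5). The list of reference genes reached it in 15 of 15 cases, with ACTB as its highest gene.

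Immune-related genes were uneven. The share at 1 FPKM or more was 72.7% for antigen presentation, 53.3% for interferon and 45.5% for cytokine genes. All protein-coding genes stood at 58.8%. Antigen presentation and immune ligand genes reached 1 FPKM in 24 of 33 cases, led by beta-2-microglobulin (B2M) at 812. HLA-C stood at 9.83 and HLA-B at 9.57, although HLA genes are alike in sequence and vary between people, so these values are uncertain. Interferon response genes reached it in 16 of 30, among them MB21D1 (24.9), STAT2 (20.5) and ISG15 (19.96), while IFIT1 stood at 0.652 and IFNB1 at 0 counts. Chemokine and cytokine genes reached it in 15 of 33, led by IL18 (54.7), IL6 (28.3), IL32 (27.6) and CCL2 (27.2).

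The cell surface and matrix lists stand beside a share of 58.8% of all protein-coding genes at 1 FPKM or more. Surface antigen genes reached 1 FPKM in 27 of 38 cases (71.1%). They were led by integrin beta 1 (ITGB1, 402), the transferrin receptor TFRC (358), CD24 (307) and CD63 (146). Laminin and integrin genes reached 1 FPKM in 22 of 32 (68.75%), led by ITGB1, LAMC1 (149), ITGAV (68.6), LAMB3 (68.5), LAMB2 (62.6) and LAMB1 (40.9). ITGB4, the hemidesmosome integrin, stood at 1.73 FPKM, so ITGB1 was 233 times ITGB4 per length (215 to 253).

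Promoter sequence is a property that the threshold did not use. Promoters from 250 bases before to 50 after the start were taken from RefSeq on GRCh38.p14 and matched by gene for 15295 protein-coding genes (80.1%). Each was searched for short motifs. The ETS motif CCGGAAG, read on both strands, occurred in 4.48% of promoters of genes under 1 FPKM (267 of 5959, exact binomial interval 3.97 to 5.04), 16.4% from 1 to under 10 FPKM, 24.3% from 10 to under 100, and 25.05% at 100 or more (126 of 503, interval 21.3 to 29.1). Over all promoters it occurred in 14.5%. The intervals of the under 1 FPKM group and of each higher group do not overlap. They treat promoters as independent, which those of one gene family need not be, and no test was run.

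Other motifs had other profiles. The GC box GGGCGG, on both strands, occurred in 40.3% of promoters under 1 FPKM and in 70.2%, 73.0% and 69.0% of the higher groups (59.4% overall). The TATA box TATAAA, on the forward strand only, was most frequent at both ends of the ranking, at 11.8% under 1 FPKM, 3.63%, 2.76%, and 11.3% at 100 or more (6.81% overall). The CCAAT box, on both strands, occurred in 35.5%, 36.1%, 37.5% and 43.9% (36.5% overall). The palindromic element TCTCGCGA occurred in 0.470%, 1.82%, 3.16% and 4.57% (1.80% overall). Median GC content was 57.0%, 66.0%, 65.3% and 62.7% in the 4 groups, and the median number of CpG dinucleotides 8, 26, 27 and 25, so motifs rich in CpG could differ with base composition, whose part was not tested.

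Within lists, the promoters of ribosomal protein genes held the palindromic element in 11 of 63 cases (17.5%), the ETS motif in 21 (33.3%) and the TATA box in 2 (3.17%). Promoters of the histone cluster genes, a list added after the data were seen, held the TATA box in 37 of 64 cases (57.8%) and the CCAAT box in 55 (85.9%). Of the 72 histone cluster genes, 35 lay at 100 FPKM or more, a class in which 57 of 503 promoters held the TATA box. How far this family makes up the TATA and CCAAT shares of that class was not tested. NRF2 target promoters held the antioxidant response core TGACNNNGC, on both strands, in 8 of 24 cases (33.3%), beside 14.3% of all promoters of that length. That core can overlap the AP-1 motif TGACTCA. A match is only a match of letters.

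**Figure D5:**
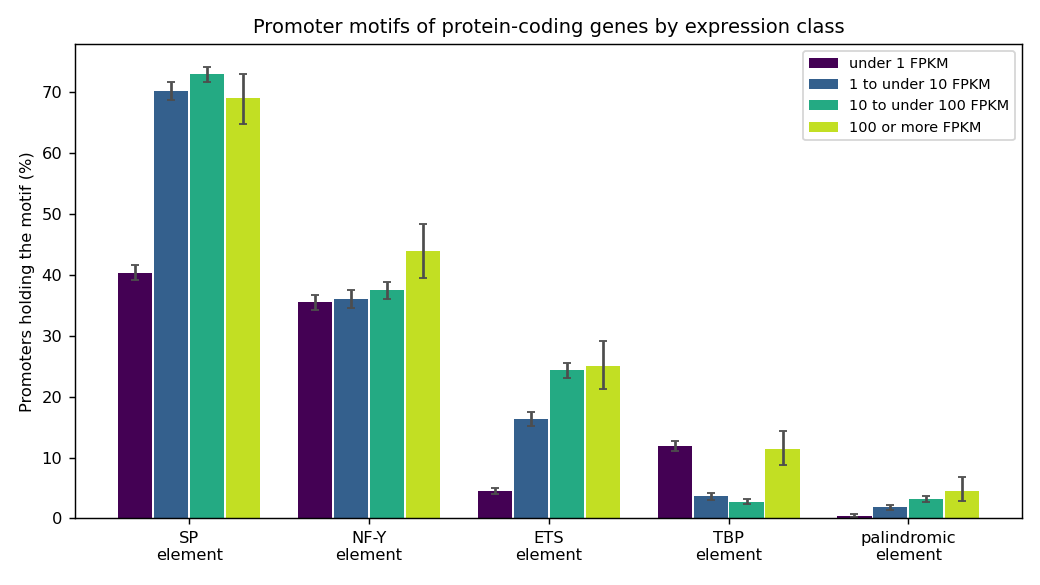
Share of protein-coding promoters that hold each motif (vertical, percent) in 4 classes of control FPKM (colours), with exact binomial 95% intervals as error bars; the SP element is the GC box, the NF-Y element the CCAAT box and the TBP element the TATA box. The ETS share is 4.48% under 1 FPKM and 25.05% at 100 or more, and the TATA box share is high in the lowest and the highest class.

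The sequences below show one promoter for each of these motifs, with the 100 bases before the annotated start written 5′ to 3′ on the strand of the gene and the motif in capitals. They include 4 genes of the top 20 and NKX2-1, a gene with 0 counts, to show that a GC box is also found before a gene that was not detected. FTL carries a CCAAT box in reverse at -81, RPS18 an ETS motif at -74, RPLP0 a TATA box at -27, RPS6 the palindromic element, matched on both strands from -52, and NKX2-1 GC boxes at -80 and -45. All are on GRCh38.p14: FTL at chr19:48965209-48965308 (+), RPS18 at chr6:33271975-33272074 (+), RPLP0 at chr12:120201112-120201211 (-), RPS6 at chr9:19380237-19380336 (-) and NKX2-1 at chr14:36520233-36520332 (-).
FTL: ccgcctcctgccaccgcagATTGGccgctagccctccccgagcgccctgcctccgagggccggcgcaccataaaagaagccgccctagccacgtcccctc
RPS18: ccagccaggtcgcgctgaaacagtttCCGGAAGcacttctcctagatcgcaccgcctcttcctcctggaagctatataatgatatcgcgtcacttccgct
RPLP0: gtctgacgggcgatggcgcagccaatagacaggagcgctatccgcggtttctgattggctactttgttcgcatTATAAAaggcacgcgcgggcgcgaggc
RPS6: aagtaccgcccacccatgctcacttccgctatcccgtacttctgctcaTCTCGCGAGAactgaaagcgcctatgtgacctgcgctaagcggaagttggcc
NKX2-1: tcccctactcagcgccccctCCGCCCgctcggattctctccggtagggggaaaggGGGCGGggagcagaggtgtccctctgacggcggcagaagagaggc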

How the data were processed

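The genes described and the gene lists were chosen with earlier results of these data known. Per the submitters' processing notes the tools were bcl2fastq 2.20.0, Trimmomatic, HISAT2 2.1.0 and StringTie 1.3.4b, with the build hg19. Their roles, the RNA selection, the strand setting and the counting method were not given in the sources used here, so reads of overlapping or antisense genes cannot be told apart. The authors deposited, for every gene, whole-number read counts and FPKM values for each library, in a table of both libraries and a table per library. The 27685 counts were identical in both, and FPKM differed by at most 2.0e-06. Only the control columns were used, mapped by the sample title.

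Gene classes came from RefSeq on GRCh38.p14, matched by NCBI gene ID for 99.5% of genes, and transcript lengths from GENCODE 29. No gene coordinates are printed, because the files' build is hg19; promoter coordinates are those of the RefSeq table. Transcript length was that of the longest GENCODE transcript matched to the listed RefSeq accessions. Lists were described by how many genes reached 1 FPKM and by their median. The count of any list is to be read beside the 58.8% of protein-coding genes that reached it. Exact Poisson intervals of counts and exact Clopper-Pearson intervals of shares, at 95%, cover at most counting error. Reads without molecular identifiers are not independent, so the intervals of read counts can be too narrow. The scripts were tested on simulated data. Tools were scipy 1.17.1, pandas 2.3.3, numpy 2.4.6 and matplotlib 3.10.9 under Python 3.11.15.

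Genes named were the 20 highest protein-coding genes, the 5 highest of each other class, up to 6 highest of each list, marker genes at 1 FPKM or more and defining markers at any level, suppressors and the 3 genes on each side of the threshold. Not every gene under this rule is reported here. Genes beyond it were chosen after their values were seen. Alternatives tried were minimums of 0.5 and 2 FPKM, a minimum of 10 counts, the single-library table, TPM, other gene classes in the ranking and a shorter promoter window. Protein-coding or long noncoding genes alone, and a ranking without ribosomal protein and histone genes, were added after seeing the data.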

Additional observations from a re-analysis of the deposited data

How the results depend on the processing

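The number of genes at the threshold (12751) stayed within 1.5 times under minimums of 0.5 and 2 FPKM, a minimum of 10 counts in addition, TPM and protein-coding genes alone, and was 653 for long noncoding RNAs alone. The share of the 100 highest protein-coding genes (24.2%) was 38.0% with all classes ranked, 14.0% by counts in place of FPKM, and 19.1% without ribosomal protein and histone genes. Of the distinct genes in the 40 lists, 52.3% reached the threshold, against 56.9% at 0.5 FPKM, 47.4% at 2 FPKM and 70.6% with 10 counts in its place. At these settings the number of genes reached changed by more than 1.5 times in 3, 5 and 22 of the 40 lists. The ETS motif share differed between the highest and lowest class by 20.6 percentage points, and by 14.0 with the 100 bases before the start. The single-library table gave the same values. No paired analysis was possible because each group holds 1 library. Without replicates the spread between cultures is unknown, and copies with shared sequence limit single-gene values.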

Other observations

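The genes and lists in these paragraphs were chosen after their values were seen. Among the 100 highest protein-coding genes, several belonged to none of the fixed lists. Nucleophosmin (NPM1), a nucleolar chaperone, stood at 946 FPKM, the actin-severing protein CFL1 at 773, the glutathione transferase GSTP1 at 761 and the mitochondrial chaperonin HSPD1 at 711. Galectin-1 (LGALS1) stood at 613 FPKM and the calcium-binding protein S100A6 at 553. The secreted protease inhibitor SLPI, known from airway secretions, stood at 484 FPKM (477 to 492), rank 97, while all 12 club and goblet markers lay under 1 FPKM.

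Replication-dependent histone genes, whose messages usually lack a poly(A) tail, reached 1 FPKM in 50 of 72 cases with a median of 95.1 FPKM, led by HIST2H2AA3 at 677 and HIST1H2BC at 654. Proteasome genes reached it in 37 of 39 cases, led by PSMB4 at 381. Among MHC class II genes 1 of 15 did, HLA-DMA at 3.82. The share was 58.8% over all protein-coding genes.

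Cancer-testis families differed in their counts. GAGE genes reached 1 FPKM in 20 of 22 cases, MAGEA genes in 10 of 13 and CT45 genes in 7 of 9. SSX, PAGE, XAGE and SPANX genes reached it in 1 of 32, XAGE5 at 10.1. The share was 46.1% over all listed genes and 58.8% over protein-coding genes. Because the split of reads among near-identical GAGE, MAGEA and CT45 copies is uncertain, these counts need not number separately transcribed genes. Of 7 mesothelial genes, 3 reached it, namely mesothelin (MSLN) at 42.6, UPK3B at 4.27 and KRT5 at 3.01, while WT1 had 0 counts and CALB2 had 5.

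Counts at some genes with close copies were low or shared. The histone variant gene H3F3A had 6 counts against 10160 at the pseudogene H3F3AP4. HNRNPA1 had 10899 counts against 16976 at HNRNPA1P10, and TRIM16 had 21169 against 32237 at TRIM16L. The microRNA loci MIR3648-1 and MIR3648-2 both had 1080 counts, and MIR3687-1 and MIR3687-2 both had 453.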
